A study of Homo sapiens with 2 samples.

Results

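Kinesins are motor proteins that walk along microtubules or take microtubules apart, using the energy of ATP. One set of them works in dividing cells, where kinesins slide the poles of the spindle apart, hold and align chromosomes and close the midzone at cytokinesis. Their transcripts are known to be made mainly in the later part of the cell cycle, so a dividing hepatoma culture contains them. Another set carries vesicles, mitochondria and other cargo through the cytoplasm of all cells or of neurons, and further members act in cilia, in signalling or in keeping microtubule length. The 42 genes described here were those whose symbol begins with KIF followed by a digit or by C, out of 18417 genes with a value. Of these, 41 were kinesin genes and 1 was an antisense RNA, KIF25-AS1. They were sorted by known role into 13 mitotic, 15 transport and 13 other kinesins. The family was selected on its differences between these same 2 arrays, which had been seen before, so its counts and medians only describe these arrays.

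The RNA came from HepG2 cells, an established line from a human liver tumour (hepatoma), grown in MEM medium and hybridised to 2 Affymetrix arrays. One array held total RNA of cells exposed for 24 h to 100 mg/L of amorphous silica nanoparticles (SiO2-NP), and the other held total RNA of control cells. The labels name no particle size and no replicate cultures, and every value below is a single measurement with no replicate error. No test was therefore run, and "higher" and "lower" compare these 2 arrays and not the conditions. In RNA of a whole culture, fewer dividing cells and less of a transcript per dividing cell cannot be told apart.

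Levels are log2 intensities, and a difference is the log2 intensity of the SiO2-NP array minus that of the control array. A gene was kept for counts when its mean over both arrays was at least 7.26, the median of all genes, which left 9209 genes and 26 of the 41 kinesins. This is a filter on level and no detection call, and intensities of different genes were not compared. Among the kept genes the median difference was -0.03 and the SD 0.16, and 95% of the differences fell within -0.37 to 0.28 (the central range below). The 2 arrays correlated with a Pearson r of 0.994 across all 33297 probes, which are not independent replicates. Of the 9 hepatocyte markers, 8 had a value (ALB, AFP, APOA1, APOB, TF, SERPINA1, FGB and TTR), and all 8 passed the level filter, with differences from -0.10 to 0.20. Of 12 markers of leukocytes, endothelium and fibroblasts, 4 passed it (LYZ, CD68, ACTA2 and COL1A1), and their differences ran from -0.11 to 0.25. The mean levels of these 4 ran from 7.55 for COL1A1 to 13.25 for LYZ.

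Mitotic kinesins past the filter were lower on the SiO2-NP array, and transport kinesins lay around the control. All 12 mitotic kinesins past the filter were below the control, with a median difference of -0.22, or 1.17-fold lower. KIF2A, which also acts at spindle poles but was placed among the other kinesins, differed by 0.02, and with it the count was 12 of 13. Of the 11 transport kinesins past it, 3 were below and 8 above, with a median of 0.06, or 1.04-fold higher. With the level filter at the 75th percentile, 3 transport kinesins remained, 2 of them below the control, and their median was -0.06. Over all genes past the filter 59.8% were below the control and 40.2% above. The medians of the mitotic and the transport kinesins were 0.28 apart, given as -0.28 for mitotic minus transport. No kinesin reached 1.5-fold in either direction, where 0.250% of all genes past the filter were at least 1.5-fold lower and 0.141% at least 1.5-fold higher. At a looser threshold, a log2 difference of 0.32, there were 6 lower kinesins of 26 and 0 higher, beside 4.27% and 1.52% of all genes. Of the 6, 5 were mitotic and the other was KIF27. This split depended on the scaling, since KIF11 lay just past the threshold (-0.327 against 0.322). After quantile normalization KIF11 differed by -0.27 and KIF3C, a transport kinesin, by 0.35.

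**Figure D1:**
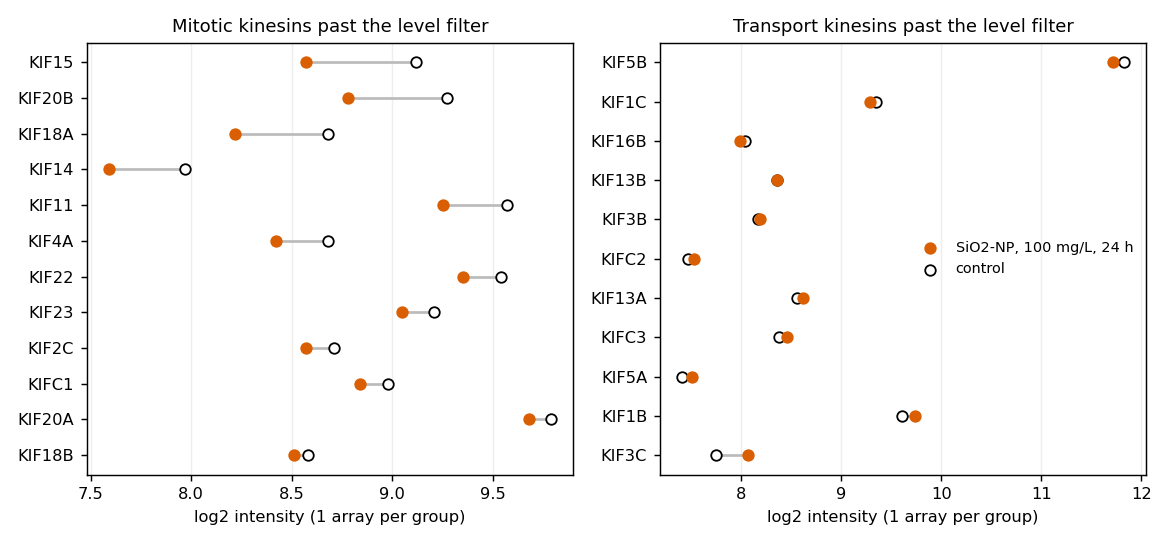
Log2 intensity (horizontal axes) of the 12 mitotic kinesins (left) and the 11 transport kinesins (right) past the level filter, with 1 filled point for the SiO2-NP array and 1 open point for the control array, ordered from the most negative difference at the top. In the left panel every filled point lies left of its open point, and in the right panel 3 do.

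Among mitotic kinesins past the filter, the motors of the spindle itself held both the largest and the smallest absolute difference. KIF15, which can drive spindle poles apart alongside KIF11, had a log2 intensity of 8.57 in SiO2-NP cells and 9.12 in control cells, a difference of -0.55 or 1.46-fold lower. It had the largest absolute difference of the 41 kinesins, and 42 of the 9209 genes past the filter had a lower one. KIF11, the bipolar motor that separates the spindle poles and is the target of monastrol, had 9.25 in SiO2-NP cells and 9.57 in control cells, a difference of -0.33. KIF18A, which damps the movements of chromosomes at the metaphase plate, stood at 8.22 in SiO2-NP cells against 8.68 in control cells, a difference of -0.45. Its relative KIF18B, a motor at the plus ends of astral microtubules, differed by only -0.07 (8.51 in SiO2-NP cells, 8.58 in control cells). Of the 9209 genes, 118 had a lower difference than KIF18A and 3593 a lower one than KIF18B, although both belong to the kinesin-8 family.

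Motors of cytokinesis also differed in size, from -0.49 to -0.11. KIF20B had 8.78 in SiO2-NP cells and 9.27 in control cells, a difference of -0.49 or 1.41-fold lower, and it acts in the last steps of daughter cell separation. KIF20A, which brings the chromosomal passenger complex to the midzone, had 9.68 in SiO2-NP cells and 9.79 in control cells, a difference of -0.11. KIF23, the kinesin of the centralspindlin complex, had 9.05 in SiO2-NP cells and 9.21 in control cells, a difference of -0.16. KIF14, which works with citron kinase at the midbody, was lower by more than KIF20A and KIF23, at 7.59 in SiO2-NP cells and 7.97 in control cells, a difference of -0.38. KIF20B and KIF14 were outside the central 95% of all genes, as were KIF15 and KIF18A, and KIF20A and KIF23 were inside it.

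The chromokinesins, which bind chromatin and push chromosome arms away from the poles, lay in the middle of the mitotic order. KIF4A had 8.42 in SiO2-NP cells and 8.68 in control cells, a difference of -0.25. KIF22 had 9.35 in SiO2-NP cells and 9.54 in control cells, a difference of -0.19, and its 2 probes both gave -0.19. Those probes had like intensities in SiO2-NP cells, 9.34 and 9.37, so they may not be separate measurements. The probe that KIF4A shares with its intronless copy KIF4B, left out of the gene values because it names both, gave -0.26, so KIF4B had no value of its own. KIF2C, the depolymerase that corrects wrong attachments at centromeres, had 8.57 in SiO2-NP cells and 8.71 in control cells, a difference of -0.14. KIFC1, a minus-end motor that focuses spindle poles, had 8.84 in SiO2-NP cells and 8.98 in control cells, also -0.14. Both of its probes gave -0.139, at intensities of 8.81 and 8.88 in SiO2-NP cells, so they may not be separate measurements. The mitotic kinesin under the level filter, KIF2B, had 6.36 in SiO2-NP cells and 6.19 in control cells, and its difference of 0.17 was the only positive one of the 13.

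Promoter sequence was set beside these values because the genes of one role differed in the same direction. A pair of short motifs was searched on both strands in the 300 bases from 250 before to 50 after each annotated start, in RefSeq entries of GRCh38.p14. The first is the cell cycle genes homology region (CHR), TTTGAA or TTCGAA, known from promoters of genes expressed in late cell cycle phases. The other is the CCAAT box, CCAAT, bound by NF-Y. The motifs were chosen after the values were seen, and no CHR overlapped a CCAAT box in a kinesin promoter. The mitotic kinesins were sorted by a role in dividing cells, and the CHR is known from such genes. Its share among them therefore describes the sorting by role, and a link to the differences was not tested. All 12 mitotic kinesins past the filter had a promoter entry, and 10 of them held a CHR (83.3%), against 15.5% of the 7530 genes past the filter with an entry. A CCAAT box was held by 10 of the 12 as well (83.3%), against 43.3% of those genes, and 9 held both, against 8.49%. Only KIF2C and KIF20A of the 12 had no CHR in the window, and only KIF2C and KIF15 had no CCAAT box. Of the 7 transport kinesins past the filter with an entry, 1 held a CHR (KIF5B) and 3 a CCAAT box (KIF5B, KIF1B and KIF3B). The mean GC content of the windows was 62.3% for the mitotic kinesins and 72.2% for those 7 transport kinesins, beside 65.0% for all genes past the filter.

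The 100 bases before the annotated start are shown for 5 of the mitotic kinesins that carry a CHR there, with differences from -0.55 to -0.16, and for KIF5B and KIF1C, the transport kinesins past the filter with the lowest differences. Capitals mark the CHR and CCAAT letters, read on either strand, so that a CHR can appear as TTCAAA and a CCAAT box as ATTGG.
KIF15 (chr3:44761694-44761793, plus strand): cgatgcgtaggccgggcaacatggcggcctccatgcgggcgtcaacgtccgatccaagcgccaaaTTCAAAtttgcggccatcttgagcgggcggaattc
KIF18A (chr11:28108157-28108256, minus strand): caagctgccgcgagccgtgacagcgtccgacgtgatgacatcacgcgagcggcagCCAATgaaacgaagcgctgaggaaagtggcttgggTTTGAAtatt
KIF11 (chr10:92593030-92593129, plus strand): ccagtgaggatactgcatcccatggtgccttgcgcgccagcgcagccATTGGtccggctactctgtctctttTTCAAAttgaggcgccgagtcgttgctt
KIF4A (chrX:70290004-70290103, plus strand): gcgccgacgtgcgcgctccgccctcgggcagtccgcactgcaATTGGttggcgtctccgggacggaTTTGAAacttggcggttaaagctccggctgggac
KIF23 (chr15:69414249-69414348, plus strand): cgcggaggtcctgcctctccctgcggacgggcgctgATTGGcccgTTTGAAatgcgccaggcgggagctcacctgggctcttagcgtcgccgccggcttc
KIF5B (chr10:32056426-32056525, minus strand): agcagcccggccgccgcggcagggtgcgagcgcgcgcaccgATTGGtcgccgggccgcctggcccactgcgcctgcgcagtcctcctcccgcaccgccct
KIF1C (chr17:4997850-4997949, plus strand): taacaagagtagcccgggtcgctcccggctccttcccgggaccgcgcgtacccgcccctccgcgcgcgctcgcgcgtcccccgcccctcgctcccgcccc
In KIF18A, KIF11 and KIF4A the CCAAT box began 45, 53 and 58 bases before the start and the CHR 10, 28 and 34 bases before it, in that order along the gene. KIF23 had the 2 motifs 64 and 55 bases before its start, and KIF15 had the CHR alone, 35 bases before. The CHR of KIF5B lay further out, 140 bases before the start and outside the bases shown, and KIF1C showed neither motif. The CHR in KIF14, KIF18B, KIF20B and KIFC1 began at base 2, 3, 25 and 5 of the transcript, and KIF20B had a further match at base 31. In KIF22 a CHR began 27 bases before 1 annotated start, with a CCAAT box 66 bases before it. Counted from another annotated start of KIF22, a CHR began 244 bases before. A match describes these letters only and was not read as a bound site.

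Transport kinesins past the filter differed in both directions, from -0.12 to 0.32, with a median nearer the control than that of the mitotic kinesins. KIF5B, the ubiquitous heavy chain of conventional kinesin, had 11.72 in SiO2-NP cells and 11.83 in control cells, a difference of -0.12, the lowest of the 11 past the filter. Of the 12 mitotic kinesins, 10 lay below KIF5B, while KIF20A and KIF18B did not. KIF1C, which carries integrins and other cargo to the cell periphery, had 9.29 in SiO2-NP cells and 9.35 in control cells (-0.06). KIF16B, which moves early endosomes, had 7.99 in SiO2-NP cells and 8.04 in control cells, a difference of -0.05 that rounds from -0.045. These 3 were the transport kinesins below the control.

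Above the control, KIF3C stood apart from its own group. This heavy chain of the kinesin-2 type had 8.07 in SiO2-NP cells and 7.75 in control cells, a difference of 0.32, just under the looser threshold (0.320 against 0.322). It was the only transport kinesin outside the central 95% of all genes. KIF3B, the partner of KIF3A in the heterotrimeric motor of cilia, had 8.19 in SiO2-NP cells and 8.17 in control cells (0.02). KIF3A itself was under the level filter, with 6.43 in SiO2-NP cells and 6.65 in control cells, a difference of -0.22. Members of this one subfamily thus ran from -0.22 to 0.32 on the same arrays, with the dendritic motor KIF17 (6.55 in SiO2-NP cells, 6.35 in control cells) at 0.19 under the filter.

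The remaining transport kinesins past the filter lay between 0.00 and 0.13. KIF1B, which transports mitochondria and synaptic vesicle precursors, had 9.74 in SiO2-NP cells and 9.61 in control cells (0.13). KIF13A, which moves endosomal and melanosomal cargo, had 8.62 in SiO2-NP cells and 8.56 in control cells (0.07). KIF13B, which binds the scaffold DLG1, had 8.36 on both arrays, a difference of 0.00. The minus-end motors showed differences of like size. KIFC3, which acts at adherens junctions and in apical transport, had 8.46 in SiO2-NP cells and 8.38 in control cells (0.07), and KIFC2 had 7.53 in SiO2-NP cells and 7.47 in control cells (0.06). KIF5A, a conventional kinesin known from neurons, had 7.51 in SiO2-NP cells and 7.41 in control cells (0.09). Its mean of 7.46 and that of KIFC2, 7.5, were close to the filter of 7.26, and a weak transcript there could not be told from an absent one. Of the neuronal kinesins under the filter, KIF1A had 6.34 in SiO2-NP cells and 6.20 in control cells (0.14), and KIF5C had 4.87 in SiO2-NP cells and 4.95 in control cells (-0.08).

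**Figure D2:**
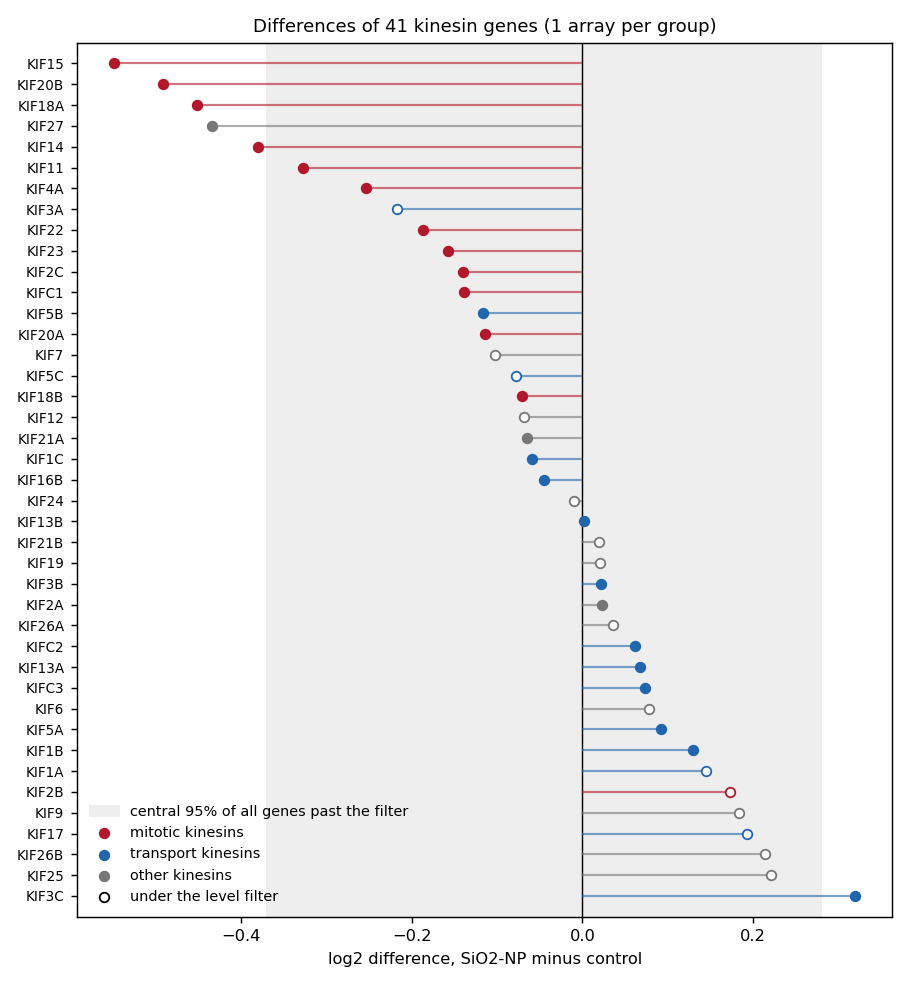
Log2 difference, SiO2-NP minus control (horizontal axis), of the 41 kinesin genes, with filled points for the 26 past the level filter and open points for the 15 under it, coloured by role. The shaded band is the central 95% of all genes past the filter (-0.37 to 0.28), and 4 mitotic kinesins, KIF27 and KIF3C lie outside it.

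Of the other kinesins 3 passed the level filter. KIF27, a relative of the Hedgehog regulator KIF7, had 7.56 in SiO2-NP cells and 7.99 in control cells, a difference of -0.43 or 1.35-fold lower. That value rests on 1 probe, and the 2 further KIF27 probes, shared with LOC389765, both differed by -0.07. Probes of this gene therefore disagreed, and the gene value with all 3 averaged was -0.19. KIF2A, a depolymerase of spindle poles and of neurons, had 9.91 in SiO2-NP cells and 9.89 in control cells, a difference of 0.02, beside -0.14 for KIF2C of the same subfamily. KIF21A, which restrains microtubule growth at the cell cortex, had 8.42 in SiO2-NP cells and 8.48 in control cells (-0.06).

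The other kinesins under the filter numbered 10, of which 3 were below and 7 above the control. KIF7 (6.85 in SiO2-NP cells, 6.95 in control cells) and KIF12, a gene of liver and kidney (6.91 in SiO2-NP cells, 6.98 in control cells), differed by -0.10 and -0.07. The ciliary members KIF19, KIF6 and KIF9 differed by 0.02, 0.08 and 0.18, and KIF26A and KIF26B, which lack motor activity, by 0.04 and 0.21. KIF24, a depolymerase of the mother centriole, differed by -0.01, KIF21B by 0.02 and KIF25 by 0.22, and the antisense RNA KIF25-AS1 by 0.14. Positive differences were common at such levels, since 5924 of the 9208 genes under the filter were above the control. The members nearest the filter were KIF5A inside it, with a mean level of 7.46, and KIF26A outside it, with 7.02.

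The roles kept their order at like level. When each difference was set against a running median over genes of like level, the 12 mitotic kinesins had a median of -0.18, with all 12 below, and the 11 transport kinesins had 0.06, with 3 below. On that scale KIF15 stood at -0.51, KIF20B at -0.44 and KIF18A at -0.40, and KIF18B at -0.02. KIF3C stood at 0.35.

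**Figure D3:**
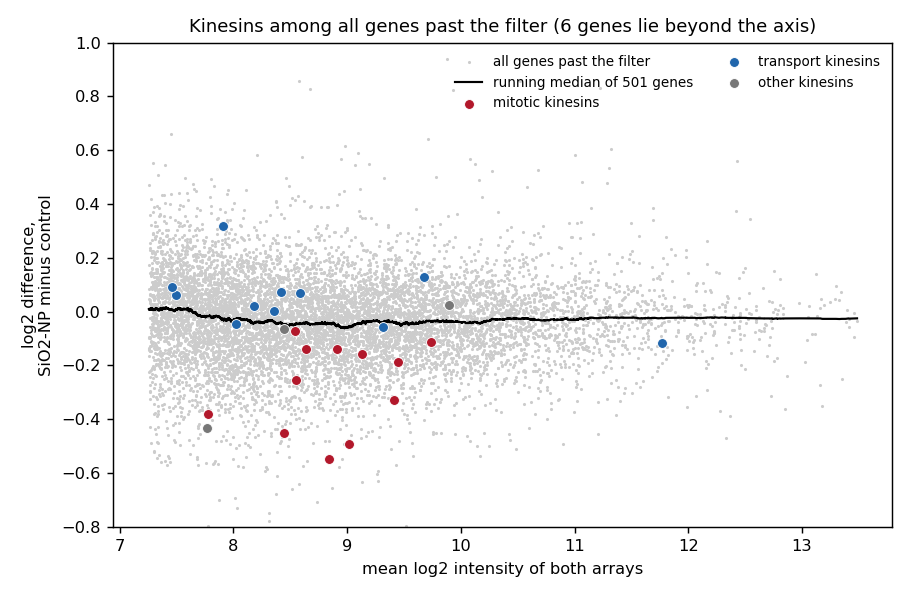
Log2 difference, SiO2-NP minus control (vertical axis), against the mean log2 intensity of both arrays (horizontal axis) for the 9209 genes past the level filter (grey), with the kinesins coloured by role and the running median as a line; 6 grey genes lie beyond the axis. All 12 mitotic kinesins lie below the line.

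Genes that work with each set of kinesins were listed by role. Of 25 mitotic partners, all past the filter, 20 (80.0%) lay below the control, beside 59.8% of all genes past the filter. The other 5 lay above it, by up to 0.13. The median of the 25 was -0.10, so the mitotic kinesins had a lower median than the genes listed beside them. CENPE, the kinetochore kinesin whose symbol falls outside the KIF rule, had 8.44 in SiO2-NP cells and 8.87 in control cells, a difference of -0.43 that lies between KIF18A and KIF14. With CENPE, the partners with the largest absolute differences were the kinases CDK1 (-0.63) and TTK (-0.50) and the spindle protein DLGAP5 (-0.36). Among 20 transport partners past the filter 9 (45.0%) were below, with a median of 0.03. KIFAP3, the adaptor that joins KIF3A and KIF3B to cargo, had 7.63 in SiO2-NP cells and 7.86 in control cells, a difference of -0.23. That was close to KIF3A (-0.22, under the level filter) but not to KIF3B (0.02, past it). The dynein adaptor BICD1 differed by 0.27, the kinesin-1 scaffold MAPK8IP1 by 0.23 and the lysosome adaptor FYCO1 by 0.19.

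The minus-end motor dynein and its cofactor dynactin, which run against most kinesins, had 10 of 19 members (52.6%) below the control and a median of -0.003, where 59.8% of all genes were below. Their members with the largest absolute differences were the light chains DYNLT3 (-0.39) and DYNLT1 (-0.30), ACTR10 (-0.29) and DCTN3 (0.23). The tubulins, which form the track, had 8 of 14 members (57.1%) below and a median of -0.01, with TUBE1 at -0.30, TUBB2B at 0.26, TUBB6 at 0.22 and TUBA1B at 0.18, and tubulin genes share sequence. Intraflagellar transport genes, whose products ride on KIF3A and KIF3B, had 10 of 11 members below the control and a median of -0.13, led by IFT122 (-0.17), WDR19 (-0.16), IFT20 (-0.15) and IFT52 (-0.14). After centring on the running median 8 of those 11 were below, with a median of -0.10, beside 4596 of all 9209 genes.

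**Figure D4:**
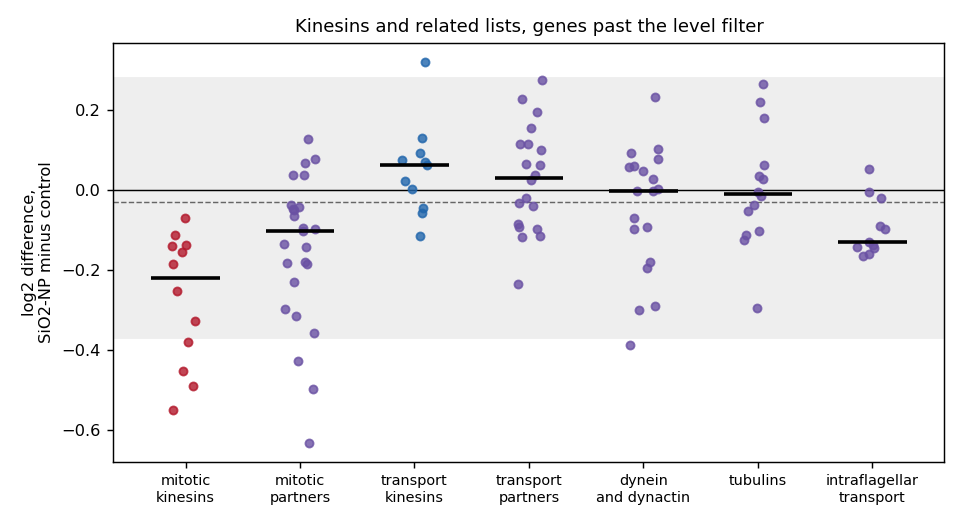
Log2 difference, SiO2-NP minus control (vertical axis), of single genes past the level filter (points) in 7 lists, with list medians as bars, the central 95% of all genes shaded and their median of -0.03 dashed. Mitotic kinesins have the lowest median of the 7 lists (-0.22) and transport kinesins the highest (0.06).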

How the data were processed

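Per the labels' protocols, about 300 ng of total RNA per array was converted to cDNA, amplified and biotin-labelled. The deposited table holds 1 log2 intensity per probe (a transcript cluster) and array; that they are logs follows from their range, 2.08 to 14.35. Per the submitters' processing notes RMA and MAS5 were used; which made these values is not given in the sources used here. If the arrays were scaled to one distribution, a shift of most transcripts is hidden. An array has no read depth, and 1 array per group limits the precision.

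Of 33297 probes, 19460 had exactly 1 gene symbol in the platform annotation and were averaged per gene; 1754 with several symbols, 5 of them with a kinesin, were left out. The 42 symbols came from 46 probes, and all 42 matched RefSeq (GRCh38.p14) by gene identifier. The named genes were every kinesin, CENPE and the 4 members of each related list with the largest absolute difference past the filter. Members and lists were chosen with earlier results of these data known, so no test or p-value is given. The averaging per gene, the 1.5-fold calls and quantile normalization were tested on simulated data. The shifts planted there were larger than any kinesin difference, and the promoter search was not tested. The tools were matplotlib 3.10.9, pandas 2.3.3, NumPy 2.4.6 and Python 3.11.15. Alternatives covered the level filter, scaling, probe rules, thresholds and role assignments.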

Additional observations from a re-analysis of the deposited data

How the results depend on the processing

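The mitotic median of -0.22 was -0.17 after quantile normalization and -0.27 as a mean, and stayed between -0.22 and -0.18 under the other alternatives. A level filter at the 75th percentile left 7 mitotic kinesins, 7 of them below the control, and 3 transport kinesins, whose median was then -0.06 in place of 0.06. Without a filter 5 of 15 transport kinesins were below the control, in place of 3 of 11, and their median stayed at 0.06. The median of the other kinesins, -0.06 over 3 genes, was 0.02 without the filter and 0.02 with the stricter one (1 gene left), -0.01 after quantile normalization and -0.16 as a mean; with so few genes 1 of them decides it. The count of lower kinesins was 0 at 1.5-fold and 6 at a log2 difference of 0.32, and 0 were at least 1.5-fold higher or lower under any alternative that kept the 1.5-fold threshold. The count of 6 holds for the values as deposited. Under the 3 scalings (both centrings and quantile normalization) KIF11 moved from -0.33 to between -0.30 and -0.27, and KIF3C from 0.32 to 0.35. KIF27 was at -0.19 when probes with several symbols were kept. Of the 26 single kinesins past the filter, none changed sign under the 3 scalings and 2 probe rules; the largest move was 0.24, for KIF27 when probes with several symbols were kept. Values moved by 0.05 or more in 14 of 26 kinesins after quantile normalization. Medians were counted as kept when they moved by less than 0.05, since no replicate spread exists. Alternative pseudocounts were not needed on a log2 table. No paired analysis was possible because there was only 1 array a group, which also left no replicate to omit.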

Other observations

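Both promoter motifs that most mitotic kinesins carry were also looked up in the other genes past the level filter, after the values had been seen and with kinesins left out. The 629 genes with a CHR and a CCAAT box had a median difference of -0.05, SiO2-NP minus control, with 61.7% below the control. The 3734 genes with neither had a median of -0.03, with 58.9% below. Genes with a CHR alone (524) had -0.04 and genes with a CCAAT box alone (2622) had -0.03. The quartiles of the first set, -0.15 and 0.05, overlapped those of the genes with neither, -0.12 and 0.06. The mitotic kinesins with both motifs ran from KIF20B (-0.49) to KIF18B (-0.07). As 9 of the 12 carried both, a wide range among them says nothing of the motifs. A link between motifs and differences was not tested.

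Some pairs within a subfamily differed in size on the same arrays: KIF18A and KIF18B (-0.45 and -0.07), KIF20B and KIF20A (-0.49 and -0.11), and KIF3A, which was under the level filter, and KIF3C (-0.22 and 0.32). Other pairs had close values: KIFC2 and KIFC3 (0.06 and 0.07), KIF13B and KIF13A (0.00 and 0.07), and KIF20A and KIF23 (-0.11 and -0.16). These pairs are examples picked without a rule, and pairs left out include KIF1B and KIF1C (0.13 and -0.06). Without replicate arrays the spread of a single kinesin between cultures is not known.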
